A study of Mus musculus with 10 samples.

Results

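The elastic fiber and microfibril genes described here are Eln, Fbn1, Fbn2, Fbln1, Fbln2, Fbln5, Mfap2, Mfap4, Mfap5 and Dpt, chosen by symbol. The platform's gene table gave 17 probe sets for 9 of these 10 genes, out of 45101 probe sets and 18193 named genes, and Fbn1 was not analysed here. Total RNA was measured on 10 Affymetrix arrays, 2 for each of 5 groups of secondary, inducible mouse embryonic fibroblasts of a 129/SvJ x C57/B6 hybrid strain, in which doxycycline turns on the reprogramming factors Oct4, Sox2, Klf4 and Myc. The control had no inducer and 0.5% serum over 96 h. The induced groups had doxycycline (2 ug/ul in the labels) and 15% serum over the same 96 h, and their labels give the average number of divisions as 0, 1, 2, and 3 or more. All groups carry the inducible factors, control cells included. Doxycycline and serum therefore differ together between every cohort and the control, while the cohorts share both and differ in their labelled divisions. Numbered arrays are called biological replicates at 3 or more divisions and in the control, and replicates in the other cohorts. Separate cultures or animals are not stated, so p-values measure the spread between these arrays, which may be technical in part.

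Elastic fibers give skin, lung and vessel walls their recoil. They are built outside the cell from tropoelastin, the product of Eln, which is deposited on a scaffold of microfibrils and cross-linked there. Fibrillins, here Fbn2, form the microfibril, and the small glycoproteins encoded by Mfap2 and Mfap5 bind to it. Mfap4 encodes a fibrinogen-related glycoprotein of the fiber. Fibulin-5, the product of Fbln5, binds tropoelastin and cell-surface integrins and is needed for elastic fibers to form in mice. Fibulin-1 and fibulin-2, encoded by Fbln1 and Fbln2, lie in elastic fibers and in basement membranes. Dpt encodes dermatopontin, a small matrix protein that binds decorin and collagen fibrils and is not a core part of the elastic fiber. Fibroblasts make most of these proteins.

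Of the 9 measured genes 5 have an entry in the RefSeq promoter table (GRCm38.p6), and 3 of these are shown. Dpt and Mfap2 were chosen because their levels moved together over the arrays, and Fbln2 because it passed the test in no comparison. Each is the 250 bases before a listed start, read 5′ to 3′ on the gene's strand, which is the plus strand for the 3 of them, at chr1:164796413-164796662 for Dpt, chr4:141010431-141010680 for the first of 2 listed starts of Mfap2, and chr6:91212514-91212763 for Fbln2. Capitals mark a GC box, GGGCGG or its reverse complement.
Dpt: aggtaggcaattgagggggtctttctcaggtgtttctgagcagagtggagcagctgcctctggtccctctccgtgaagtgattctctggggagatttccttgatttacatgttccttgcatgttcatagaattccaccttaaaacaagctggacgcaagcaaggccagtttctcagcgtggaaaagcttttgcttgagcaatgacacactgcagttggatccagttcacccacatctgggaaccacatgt
Mfap2: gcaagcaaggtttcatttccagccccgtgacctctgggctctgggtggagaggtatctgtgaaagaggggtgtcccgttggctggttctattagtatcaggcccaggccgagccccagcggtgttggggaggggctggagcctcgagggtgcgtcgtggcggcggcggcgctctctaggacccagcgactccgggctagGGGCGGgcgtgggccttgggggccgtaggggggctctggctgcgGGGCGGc
Fbln2: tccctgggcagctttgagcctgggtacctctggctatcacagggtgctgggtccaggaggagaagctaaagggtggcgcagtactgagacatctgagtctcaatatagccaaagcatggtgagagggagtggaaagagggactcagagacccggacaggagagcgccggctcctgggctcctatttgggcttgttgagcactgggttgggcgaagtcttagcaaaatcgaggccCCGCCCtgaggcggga
The Mfap2 window held 2 GC boxes, 51 and 7 bases before the start, the Fbln2 window held 1, and the Dpt window held 0. Of 32851 listed promoter windows of this length 32.7% held the GC box. A search on both strands for the TATA box TATAAA (in 12.4% of all windows), the AP-1 site TGANTCA (6.75%) and the TEAD site GGAATG (12.6%) found 0 in the 3 windows shown. The window of the second listed start of Mfap2, not shown, held 1 TEAD site, 176 bases before that start, and 0 GC boxes. Of the measured members not shown, Fbln5 had 2 GC boxes and Fbln1 had 1, at its second listed start. Such matches describe letters and not bound sites.

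Levels are given as log2 of the deposited linear intensity after quantile normalization of the arrays, and the probe set with the highest mean stood for its gene. Differences were tested with limma in 1 model of all 10 arrays and adjusted over 18193 genes by Benjamini-Hochberg. A gene was called at an adjusted p under 0.05. Array medians of the deposited intensity ran from 31.4 to 33.95. Without detection calls, genes above background cannot be listed. On bulk arrays fewer cells that make a transcript and less of it per cell cannot be told apart. RNA quality was read from the control probe sets of Actb, whose 3-prime signal exceeded the 5-prime one, on the log2 scale, by 0.45 on both arrays of 3 or more divisions against 0.28 and 0.30 in the control, and by 0.42 and 0.49 after 2 divisions against 0.33 and 0.27 after 0 divisions. In the control Gapdh read 12.68 and 13.16 (3-prime) and 12.62 and 13.13 (5-prime). After 3 or more divisions it read 13.93 and 14.09 (3-prime) and 13.66 and 13.83 (5-prime). The 5-prime probe set of 18S RNA read 10.75 and 10.58 after 3 or more divisions against 13.04 and 12.40 in the control. Its 3-prime one read 9.68 and 9.95 against 9.44 and 9.20. Fibroblast markers, which check the labelled cell type, were present in every group. They were lower too, with 6 of 9 called and a summed intensity of 56695 to 63707 after 3 or more divisions against 93682 to 97362 in the control. Of 6 epithelial markers 3 were called higher, and their sum was 2444 to 2456 against 156 to 164. Over all genes 11.7% were called lower and 15.9% higher between these groups. The part of these shifts in the results below was not tested.

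Elastic fiber and microfibril genes were lower in the cohort of 3 or more divisions than in the starved control in 7 of 9 cases, and 0 were higher. Dpt stood 22.8-fold below the control, and Eln, Mfap2 and Mfap5 stood 10.2-fold to 12.5-fold below it. For Mfap4 the measured ratio was 22.4-fold, but its intensity after 3 or more divisions, 32.5 and 35.6, was near the array medians and is not shown to lie above background, so that fold is not exact and has no rank. Fbln5 and Fbn2 fell by less, and Fbln1 and Fbln2 did not pass. The 7 called genes had arrays that did not overlap between the groups. Over all genes 11.7% were called lower and 15.9% higher in this comparison, and 28.6% had both arrays of the cohort below both of the control. All 9 genes lay above the median level of all genes. In a fit of the 9096 genes above it alone 4458 were called in either direction, against 5020 of 18193 in the main fit. Shares over all genes, here and below, thus include dim genes as well. The median log2 change was -3.35 over the 9 genes and 0.02 over all genes. The genes were listed with earlier results of these data known, so the count of 7 of 9 is a description of the list. It was 7 again without any 1 of the 4 arrays and in a fit of these 4 arrays alone, which form the set for which the submitters' notes name RMA. With the replicate number as a block it was 8, since Fbln1 passed (adjusted p = 0.00827), beside 17.3% of all genes called lower.

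Group means stepped down at every step, from the control over 0, 1 and 2 to 3 or more divisions, in 7 of 9 genes, beside 7.38% of all genes. Fbln1 and Fbln2 did not show this order. The first and the last step set arrays for which RMA is named against arrays with no processing tool named, and set and group cannot be told apart there. A slope over 0, 1 and 2 divisions alone, given below, was called for 0 of the 9 genes, and for 3 with the replicate block.

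**Figure D1:**
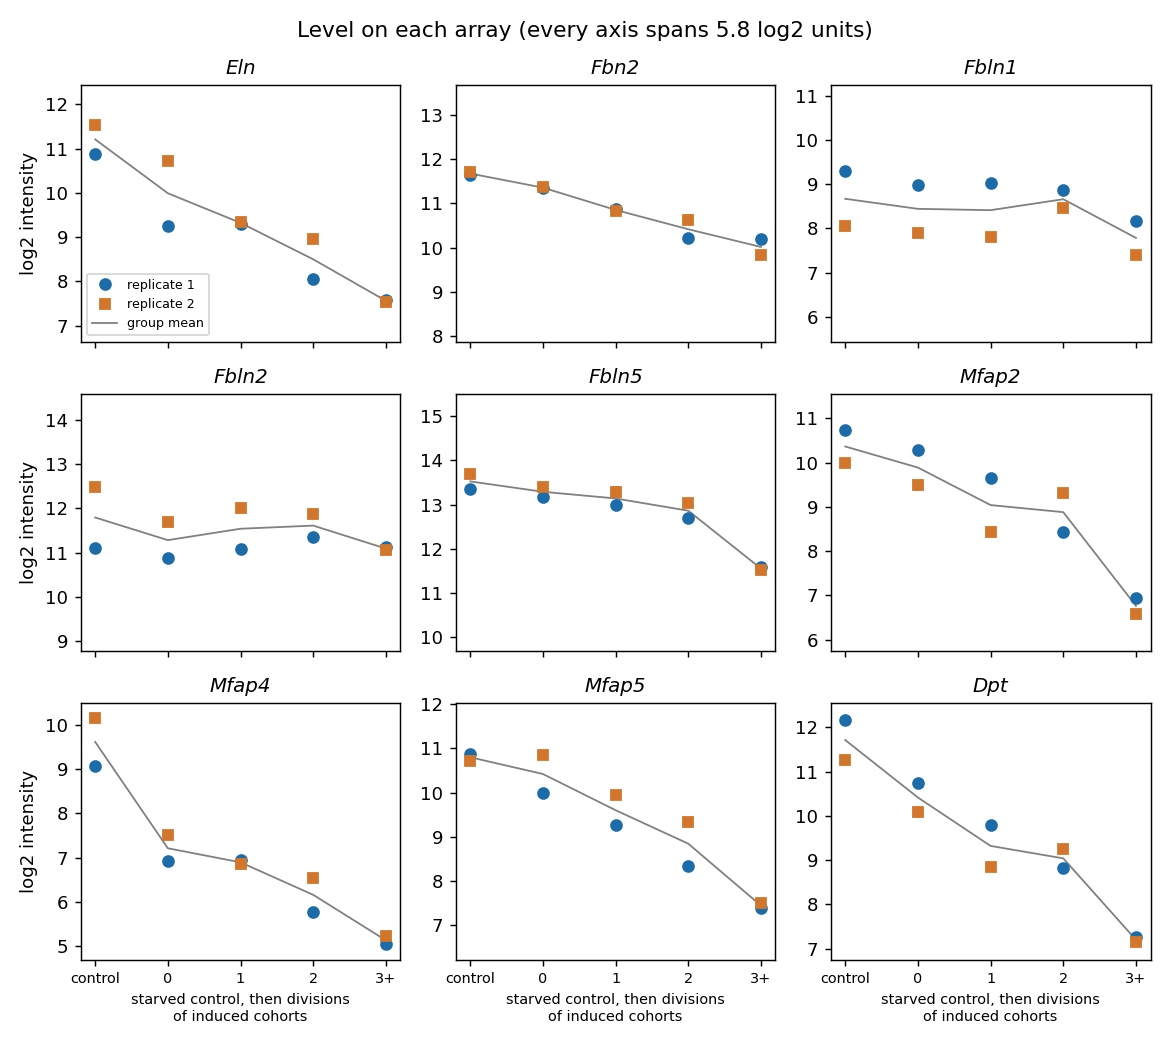
Log2 intensity of the probe set that stands for each of 9 genes on each of 10 arrays, with the starved control at the left and the induced cohorts in order of divisions; circles are replicate 1, squares replicate 2 and lines join group means. Mean levels step down from the control through every cohort in 7 genes, and in Fbln1 and Fbln2 the arrays of a group lie further apart than most group means. The first and last steps also cross between arrays with RMA named and arrays with no tool named.

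Eln, the gene of the elastic core, read 10.88 and 11.53 in the control, 9.26 and 10.72 after 0 divisions, 9.31 and 9.34 after 1, 8.04 and 8.95 after 2, and 7.58 and 7.54 after 3 or more. The groups of 0 and 1 divisions overlapped, and the other neighbours in this order did not. Against the control the cohort of 3 or more divisions was lower by a log2 change of -3.65 ± 0.47 (SE; limma adjusted p = 0.00127), and that of 2 divisions by -2.71 ± 0.47 (adjusted p = 0.0188). The 2 arrays of 0 divisions differed by 1.46 from each other, more than their mean differed from the control mean (-1.22 ± 0.47, adjusted p = 0.362). By the group means 33.4% of the log2 difference between the control and 3 or more divisions was reached after 0 divisions, 51.7% after 1 and 74.3% after 2. A dimmer probe set of Eln gave a smaller change for 3 or more divisions against the control, -1.73 ± 0.49 (adjusted p = 0.0339 over 34945 probe sets).

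Fbn2, the fibrillin of developing tissue, had the smallest fall among the called genes and the tightest arrays. It read 11.63 and 11.72 in the control, 11.34 and 11.38 after 0 divisions, 10.88 and 10.83 after 1, 10.21 and 10.62 after 2, and 10.20 and 9.84 after 3 or more. No neighbouring groups overlapped in this order. The change for 3 or more divisions against the control was -1.66 ± 0.17 (SE; limma adjusted p = 0.000524), a 3.16-fold lower level, and after 2 divisions it was -1.26 ± 0.17 (adjusted p = 0.00868). Its second probe set gave -1.54 ± 0.22 for 3 or more divisions (adjusted p = 0.00193).

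Mfap2 and Mfap5, whose products bind fibrillin microfibrils, ended at similar distances below the control. Mfap2 read 10.73 and 10.00 in the control, 10.28 and 9.50 after 0 divisions, 9.65 and 8.43 after 1, 8.44 and 9.33 after 2, and 6.95 and 6.58 after 3 or more. Neighbours from the control to 2 divisions overlapped, while both arrays of 3 or more lay at least 1 unit below all others. Mfap5 read 10.87 and 10.72 in the control, 9.99 and 10.85 after 0 divisions, 9.27 and 9.94 after 1, 8.35 and 9.34 after 2, and 7.38 and 7.51 after 3 or more. Here the control overlapped with 0 divisions, 1 division overlapped with 2, and 3 or more lay below the rest. Against the control the changes after 3 or more divisions were -3.60 ± 0.49 for Mfap2 (SE; limma adjusted p = 0.00147) and -3.35 ± 0.39 for Mfap5 (adjusted p = 0.000803). Of that difference 41.2% was reached after 2 divisions for Mfap2 and 58.3% for Mfap5. Both probe sets of Mfap5 gave near values, -3.35 and -3.43, whereas the dimmer one of Mfap2, of a kind that can cross-hybridise, gave -1.71 ± 0.26 (adjusted p = 0.00264).

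Mfap4, which encodes a fibrinogen-related protein of the fiber, stood well below the control in every induced cohort. It read 9.08 and 10.15 in the control, 6.92 and 7.51 after 0 divisions, 6.94 and 6.85 after 1, 5.78 and 6.54 after 2, and 5.05 and 5.22 after 3 or more. The control lay more than 1.5 units above every induced array, and only the groups of 0 and 1 divisions overlapped. Its change after 0 divisions was -2.40 ± 0.38 (SE), 53.6% of the difference between 3 or more divisions and the control, with a limma adjusted p of 0.0542 and of 0.00721 with the replicate block. After 3 or more divisions the change was -4.48 ± 0.38 (adjusted p = 0.000299). The levels after 3 or more divisions are dim, and differences between dim readings are smaller on this scale than on a scale with a true zero.

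The 3 fibulins differed from one another in their values. Fbln5 read 13.36 and 13.69 in the control, 13.18 and 13.40 after 0 divisions, 13.00 and 13.28 after 1, 12.69 and 13.04 after 2, and 11.60 and 11.52 after 3 or more. Neighbours from the control to 2 divisions overlapped, and the arrays of 3 or more lay over 1 unit below all others. The change against the control was -1.97 ± 0.18 after 3 or more divisions (SE; limma adjusted p = 0.00037), and 33.6% of it was reached after 2. Its dimmer probe set gave -1.12 ± 0.22 (adjusted p = 0.00688).

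Fbln1 read 9.29 and 8.05 in the control, 8.98 and 7.91 after 0 divisions, 9.02 and 7.81 after 1, 8.86 and 8.46 after 2, and 8.18 and 7.40 after 3 or more. All neighbours overlapped except 2 and 3 or more divisions. Its change after 3 or more divisions against the control was -0.88 ± 0.57 (SE; limma adjusted p = 0.308), with a 95% interval of -2.20 to 0.43. Fbln2 read 11.09 and 12.49 in the control, 10.88 and 11.69 after 0 divisions, 11.08 and 12.00 after 1, 11.35 and 11.87 after 2, and 11.12 and 11.06 after 3 or more. Neighbours from the control to 2 divisions overlapped, and both arrays of 3 or more lay below those of 2. The change of Fbln2 after 3 or more divisions against the control was -0.70 ± 0.50 (adjusted p = 0.355), with a 95% interval of -1.85 to 0.45. With the replicate block the intervals were narrower, -1.34 to -0.42 for Fbln1 and -1.35 to -0.0544 for Fbln2. In that fit Fbln1 was called (adjusted p = 0.00827) and Fbln2 was not (adjusted p = 0.0863). A dim second probe set of Fbln2, with a mean of 3.86 over the arrays, gave -0.78 ± 0.22 and passed when every probe set was tested (adjusted p = 0.0372). The other probe sets of Fbln1 gave -0.46 ± 0.41 and 0.05 ± 0.13 and did not pass.

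Dpt, the dermatopontin gene, read 12.16 and 11.26 in the control, 10.74 and 10.09 after 0 divisions, 9.79 and 8.85 after 1, 8.83 and 9.25 after 2, and 7.25 and 7.14 after 3 or more. The groups of 1 and 2 divisions overlapped, and the other neighbours did not. Against the control the log2 change of Dpt was -2.39 ± 0.39 after 1 division (SE; limma adjusted p = 0.0421), -2.67 after 2 (adjusted p = 0.0123) and -4.51 after 3 or more (adjusted p = 0.000332). Its change after 0 divisions was -1.30 ± 0.39 (adjusted p = 0.24).

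**Figure D2:**
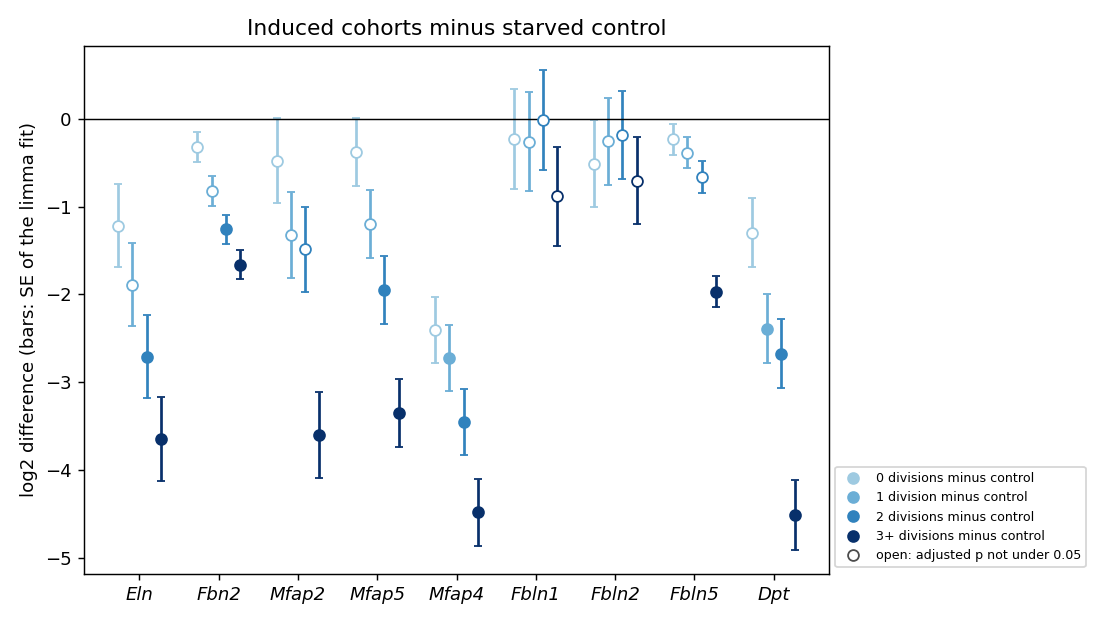
Log2 difference of each induced cohort from the starved control for 9 genes, with SE from the limma fit; darker points have more divisions, and open points did not reach an adjusted p under 0.05. After 3 or more divisions 7 genes are filled, from -1.66 for Fbn2 to -4.51 for Dpt, and after 0 divisions all points are open.

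In the cohorts with fewer divisions all 9 genes had a mean below that of the control, and fewer passed. After 0 divisions limma called 0 of 9, beside 0.077% of all genes called lower. At an unadjusted p under 0.05 Eln, Mfap4 and Dpt made 3 of 9, beside 4.45% of all genes lower at that level, and with the replicate block Mfap4 was called, beside 0.89% of all genes. Without control replicate 1 Mfap4 also passed (-2.94, adjusted p = 0.0446). After 1 division Mfap4 (-2.72 ± 0.38, SE) and Dpt were called lower, 2 of 9 genes beside 0.302% of all. The block called 5 of 9, adding Eln, Fbn2 and Mfap5, beside 2.55%. The count after 1 division was 0 with a floor of 16 and with the compared arrays only. It was also 0 without either array of that cohort or without control replicate 2, and 1 without control replicate 1. After 2 divisions Eln, Fbn2, Mfap4, Mfap5 and Dpt were called lower, 5 of 9 beside 2.06% of all genes, and the block added Fbln5 and Mfap2 (6.43%). This count was 0 in a fit of the compared arrays only, and 3 with a floor of 16, where Eln and Mfap5 lost their calls. It was 1 without replicate 1 of that cohort and 3 without control replicate 2. Fibroblast markers summed to 78606 to 82878 after 0 divisions against 93682 to 97362 in the control, with 0 of 9 called by limma, also with the block. Adipocyte markers summed to 1216 to 1414 after 0 divisions against 4355 to 4733 in the control, with 0 of 4 called by limma and 1 lower with the block. The median log2 change of these markers was -0.39, a smaller fall than that of their sum. After 2 divisions against the control the block called 3 of 9 fibroblast and 5 of 6 smooth muscle markers lower, where limma without it called 0 of each, and 3 of 6 epithelial markers were called higher in both fits. Smooth muscle markers summed to 4536 to 18166 after 2 divisions against 24965 to 32905 in the control. The part of these markers in the counts was not tested. These comparisons share the control arrays. They also set arrays with no processing tool named against arrays for which RMA is named, and the set and the group cannot be told apart there.

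Among induced cells, which share doxycycline and serum, 7 of the 9 genes had a lower mean after 2 divisions than after 0, and 0 were called. Over all genes 0% were called lower in this comparison. The same 7 genes had arrays that did not overlap, which held for 17.2% of all genes, and 6 of 9 had an unadjusted p under 0.05, beside 2.97% of all genes lower at that level. Mfap5 read 8.35 and 9.34 after 2 divisions against 9.99 and 10.85 after 0, a change of -1.57 ± 0.39 (SE; limma adjusted p = 0.3), and Eln changed by -1.49 ± 0.47 (adjusted p = 0.466). Fbn2 changed by -0.94 ± 0.17 (adjusted p = 0.175). With the replicate block Mfap5 and Fbn2 passed (adjusted p = 0.0376 and 0.046), 2 of 9 beside 0.379% of all genes. Fbln1 and Fbln2 stood at 0.22 ± 0.57 and 0.33 ± 0.50 and did not pass.

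A slope over 0, 1 and 2 divisions, fitted to these 6 arrays alone, gave 0 calls for the 9 genes and 0% of all genes called lower. The estimated slopes were largest for Mfap5, -0.79 ± 0.20 log2 units per division (SE; limma adjusted p = 0.334), Eln, -0.75 ± 0.24 (adjusted p = 0.419), and Dpt, -0.69 ± 0.19 (adjusted p = 0.359). At an unadjusted p under 0.05 were 6 of 9 slopes, beside 3.29% of all genes with a falling slope at that level. With the replicate block the slopes of Mfap5, Fbn2 and Eln passed (adjusted p = 0.00374, 0.019 and 0.0416), 3 of 9 beside 0.819% of all genes. Fibroblast markers summed to 72519 to 81675 after 2 divisions against 78606 to 82878 after 0, and epithelial markers to 573 to 1032 against 186 to 197. Smooth muscle markers summed to 4536 to 18166 after 2 divisions against 17672 to 30841 after 0. Their median slope was -0.57 per division, beside -0.50 for the 9 elastic fiber and microfibril genes, with 0 of 6 called and 1 with the block. The part of these shifts in the slopes was not tested.

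The cohort of 3 or more divisions lay below that of 0 divisions in all 9 genes. Limma called Dpt, Mfap2, Mfap5, Eln, Mfap4, Fbln5 and Fbn2 lower, 7 of 9 beside 5.44% of all genes, with Dpt at -3.22 ± 0.39 (SE, adjusted p = 0.00392), Mfap2 at -3.13 ± 0.49 and Mfap5 at -2.97 ± 0.39. In a fit of the 9096 genes above the median level alone 2505 were called in either direction. With the block 8 of 9 were called, Fbln1 among them (adjusted p = 0.0437), beside 11.2%. Eln did not pass with values floored at 16 (adjusted p = 0.0507) or with the mean of its probe sets (adjusted p = 0.0696), which left 6, and its dimmer probe set stood at -0.56 (adjusted p = 0.535). Leaving out replicate 2 of 3 or more divisions left 4 calls, and leaving out any of the other 3 arrays left 5. Against 2 divisions Fbln5 (-1.31 ± 0.18, adjusted p = 0.018), Dpt (-1.84 ± 0.39, adjusted p = 0.0397) and Mfap2 (-2.12 ± 0.49, adjusted p = 0.0477) were lower after 3 or more, 3 of 9 beside 2.52% of all genes. The block raised this to 6 of 9, with Fbln1, Mfap4 and Mfap5 added, beside 8.85%. The count against 2 divisions was 1 with a floor of 16, 1 without replicate 1 of either cohort and 0 without replicate 2 of either. Both comparisons cross the set with RMA named and the set with no tool named, so set and group cannot be told apart.

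**Figure D3:**
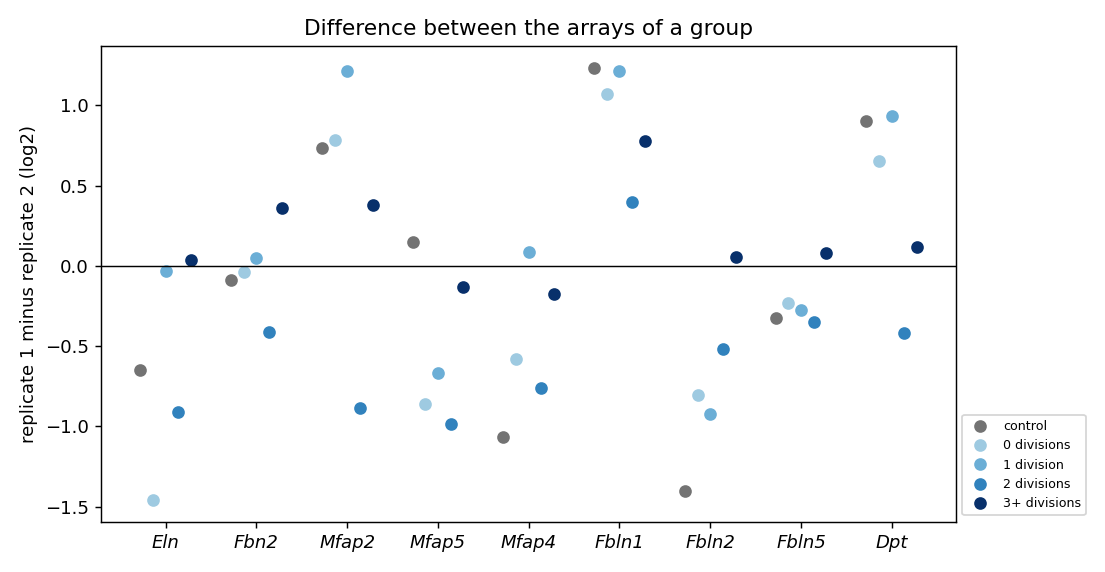
Replicate 1 minus replicate 2 in log2 units for 9 genes in each of the 5 groups, in grey for the control and in darker blue with more divisions. Fbln1 lies above 0 in all 5 groups, and Fbln2, Fbln5 and Eln lie below 0 in 4 of 5.

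The genes differed in how far the 2 arrays of a group lay apart. Fbln1 was higher on replicate 1 in all 5 groups, by 0.40 to 1.24 log2 units. Over all genes 24.5% kept the same order of replicates in all 5 groups. Fbln2 was higher on replicate 2 in 4 of 5 groups, by up to 1.40 in the control, and the 2 arrays differed by 0.06 after 3 or more divisions. Mfap2 and Dpt were higher on replicate 1 in 4 of 5 groups, and Eln, Fbln5, Mfap4 and Mfap5 were higher on replicate 2 in 4 of 5. The median difference between the arrays of a group was 1.07 for Fbln1, 0.81 for Fbln2, 0.78 for Mfap2 and 0.09 for Fbn2, against 0.18 as the median of genes above the median level.

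**Figure D4:**
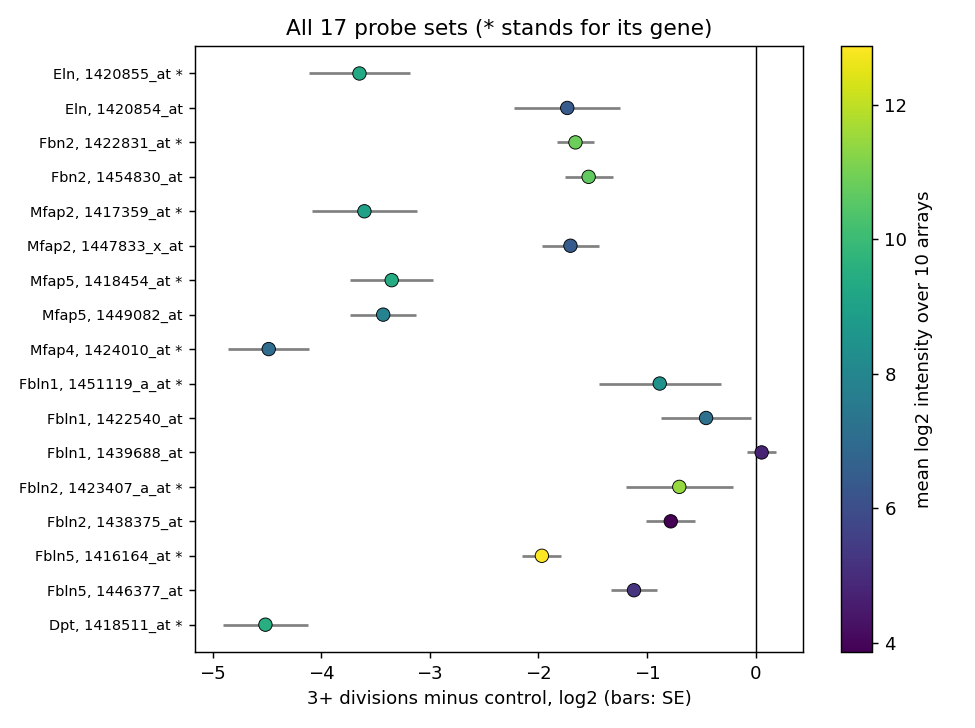
Log2 difference of 3 or more divisions from the control for all 17 probe sets, with SE; colour gives the mean log2 intensity over the arrays and a star the probe set that stands for its gene. All but 1 dim probe set of Fbln1 (0.05) lie below 0, and the dimmer probe sets of Eln, Mfap2 and Fbln5 show smaller differences than the bright ones.

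Over the 10 arrays, which share groups and replicate numbers, Eln correlated with Mfap4 at r = 0.96, Fbn2 with Eln at 0.95 and Mfap2 with Dpt at 0.96. Between Fbln1 and Fbln2 r was -0.42. With the other 7 genes Fbln1 had values from 0.19 with Eln to 0.58 with Dpt and 0.66 with Mfap2, and Fbln2 from 0.16 with Mfap2 to 0.52 with Fbln5. Of 9095 candidate genes with an SD above the median, those with the pattern most like a member were Selenos for Mfap4 (r = 0.998), Tceal9 and Sulf1 for Fbln5 (0.995 and 0.991), Pogk and Egfl6 for Mfap2 (0.994 and 0.993), Svbp for Dpt (0.988), Creld2 and Nipa1 for Eln (0.987 and 0.978), Tmed4 for Mfap5 (0.987), Tgfbr3 for Fbln1 (0.987), Sytl4 for Fbln2 (0.987) and Ccdc126 for Fbn2 (0.984). These correlations describe 10 arrays and carry no test.

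Genes that process or bind elastic fibers are read here, after 3 or more divisions against the control, beside the 11.7% of all genes called lower and 15.9% called higher. Of 4 measured lysyl oxidase genes, whose enzymes cross-link elastin and collagen, Lox (-1.77 ± 0.20, SE; limma adjusted p = 0.000695), Loxl3 (-1.45 ± 0.17) and Loxl1 (-1.20 ± 0.22) fell and Loxl4 rose (1.60 ± 0.39, adjusted p = 0.017). Loxl4 read 8.22 and 7.54 after 3 or more divisions against 5.89 and 6.66 in the control. Of 7 genes of latent TGF-beta binding proteins and TGF-beta ligands 6 fell and 0 rose, with a median of -1.59. The largest falls were those of Ltbp2 (-2.85), Ltbp3 (-2.14), Ltbp1 (-1.78) and Tgfb3 (-1.59), and Tgfb1 stood at 0.49 ± 0.72 and did not pass.

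Of 12 other fibulin, emilin and microfibril-associated genes 4 fell and 0 rose, with a median of -0.13. These were Hmcn1, a hemicentin (-3.07), Fbln7 (-2.89), Emilin1, whose product lies at the surface of the elastic core (-2.01), and the proteoglycan gene Vcan (-0.62). Fbln7 read 5.06 and 4.98 after 3 or more divisions, about as dim as Mfap4 there, so its changes here and below are not exact. Of 8 ADAMTS and ADAMTS-like genes 4 fell and 0 rose, Adamtsl3 (-2.997), Adamts6 (-2.31), Adamts10 (-1.87) and Adamtsl1 (-1.61). Adamtsl1 was the gene of these lists that limma called lower after 0 divisions (-0.95 ± 0.12, SE; adjusted p = 0.0438).

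Of 11 integrin and lysosomal receptor genes 2 fell, the integrin genes Itga8 (-3.03) and Itgb1 (-1.06), and 1 rose, the galactosidase gene Glb1 (0.61), with a median of -0.06, and these counts are near the shares over all genes. Of 10 genes of proteases that can cut elastin 3 fell and 0 rose, Mmp2 (-1.41), Mmp14 (-1.06) and the cathepsin gene Ctsk (-1.04), with a median of -0.09. After 2 divisions against the control 5 genes of these lists were called, all lower, namely Fbln7 (-2.39), Adamts6 (-1.77), Adamtsl3 (-1.14), Adamtsl1 (-0.99) and Lox (-0.98), and 0 were called between 2 and 0 divisions, where 10 genes were called over the whole table. Between 2 and 0 divisions 1412 genes of the whole table had an unadjusted limma p under 0.05. After 1 division Adamtsl1 was called against the control (-1.11).

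The replicate block changed some of these counts, and it also called more of all genes, 17.3% lower and 20.4% higher after 3 or more divisions against the control. After 3 or more divisions against the control it gave 1 rise each among the fibulin and ADAMTS lists where 0 stood before, and 3 falls and 2 rises among receptor genes. After 2 divisions, where the block called 6.43% of all genes lower and 9.11% higher, it called 4 of 7 latent TGF-beta binding protein and TGF-beta genes lower in place of 0, 2 of 12 genes of the fibulin list in place of 1, and 2 receptor genes lower and 2 higher in place of 0. It also added 1 fall and 1 rise in the ADAMTS list. After 1 division (2.55% of all genes lower and 4.47% higher) it called 2 lower in the TGF-beta list, 1 in the fibulin list and 2 in the ADAMTS list, and 1 lower and 1 higher among receptors. After 0 divisions (0.89% of all genes lower) 1 cross-linking, 1 TGF-beta and 1 receptor gene were lower, and between 2 and 0 divisions (0.379%) 1 ADAMTS gene was lower.

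Against 0 divisions, where all cells had doxycycline, and where 5.44% of all genes were called lower and 8.46% higher, the cohort of 3 or more divisions had Lox (-1.49), Loxl3 (-0.89) and Loxl1 (-0.89) lower and Loxl4 higher (1.48 ± 0.39, SE; limma adjusted p = 0.0416). Of the latent TGF-beta binding proteins Ltbp3 (-1.71), Ltbp1 (-1.55) and Ltbp4 (-1.16) were lower, 3 of 7 genes in that list and 5 with the block. With the block 11.2% of all genes were called lower, and 4652 of 18193 in either direction. Fbln7 (-2.15), Emilin1 (-1.56) and Vcan (-0.80) made 3 of 12 in the fibulin list, and Adamtsl3 (-2.70), Adamts6 (-1.59), Adamts10 (-1.42) and Adamtsl1 (-0.66) 4 of 8 in the ADAMTS list. Among receptors Itgb1 was lower (-0.84), 1 of 11, and the block gave 2 falls and 1 rise. Mmp2 (-1.33) and Ctsk (-0.87) made 2 of 10 proteases. Loxl4 stood higher after 3 or more divisions against both the control and 0 divisions, which are comparisons that share the arrays of 3 or more divisions. Against 2 divisions 0 cross-linking genes were called higher, also with the block. The comparison with 0 divisions sets arrays with RMA named against arrays with no tool named, so set and group cannot be told apart.

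**Figure D5:**
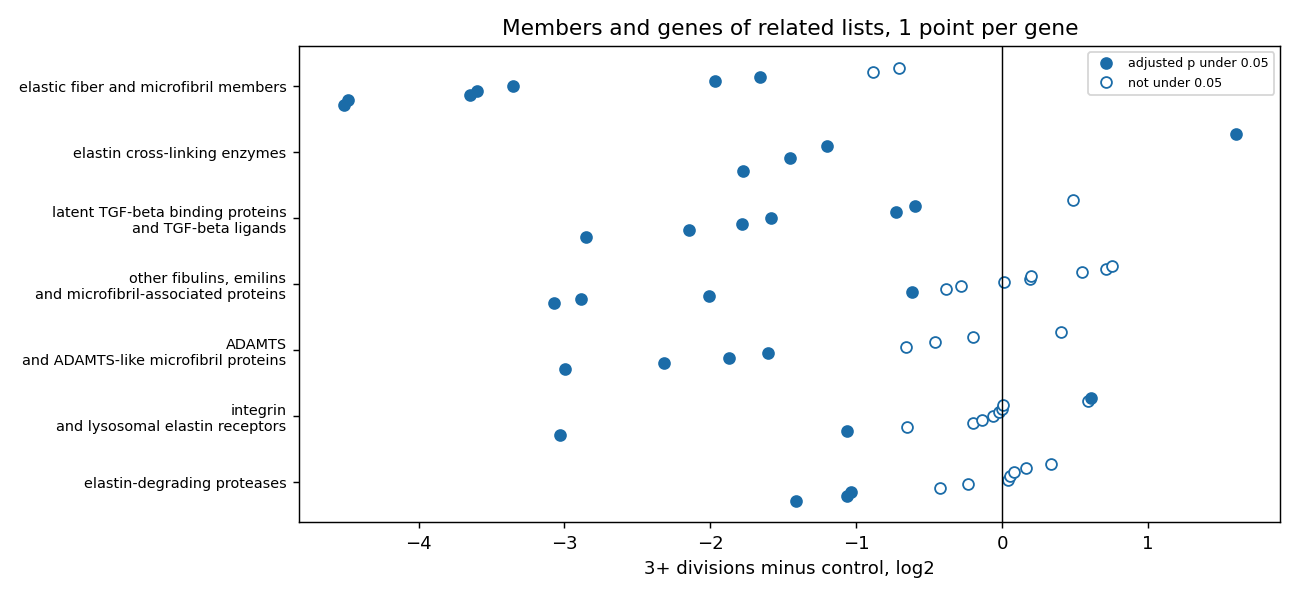
Log2 difference of 3 or more divisions from the control, 1 point per gene, for the 9 elastic fiber and microfibril genes and 6 lists of related genes; filled points have an adjusted p under 0.05. The 9 genes run from -4.51 to -0.70, and the related lists reach from -3.07 for Hmcn1 to 1.60 for Loxl4.

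Summed levels of markers of other cell types lay lower for some lists and higher for others. The counts here stand beside 11.7% of all genes called lower and 15.9% called higher, or 17.3% and 20.4% with the block. After 3 or more divisions against the control the summed intensity of 6 smooth muscle markers was 6284 to 14422 against 24965 to 32905, with 1 called lower and 5 with the block. Adipocyte markers summed to 330 to 421 against 4355 to 4733, with Lpl the 1 called lower of 4 and 2 with the block. Cartilage and tendon markers summed to 596 to 755 against 2308 to 2329, with 3 of 6 called lower. Median log2 changes were -0.98 for adipocyte and -0.73 for cartilage and tendon markers, smaller falls than those of the sums. Endothelial markers (451 to 502 against 191 to 227), macrophage markers (368 to 435 against 208 to 222) and mesothelial markers (235 to 424 against 48.7 to 53.1) had higher sums, with 1 gene called higher in each list, Tek, Cd68 and Msln, and with Kdr and Lyz2 called lower. Sums follow the bright genes of a list. The median log2 changes were 0.18 for endothelial, 0.11 for macrophage and -0.02 for mesothelial markers, so the higher sums do not describe most of these genes. Tek read 8.08 and 8.35 after 3 or more divisions against 5.93 and 5.61 in the control. The part of any of these in the falls of elastic fiber genes was not tested.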

How the data were processed

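Arrays of 10 samples were used, grouped by their labels. The authors deposited 1 table of linear intensity per probe set, without detection calls. RMA is named for the 4 arrays of the control and of 3 or more divisions, per the submitters' processing notes. For the other 6 arrays no tool is named, and versions were not found in those notes. The values were set to a floor of 1 (which moved 0 of them), log2-transformed and quantile-normalized. Of the probe sets 34945 had 1 gene symbol, 932 several and 9160 none, and only the first were named. The brightest probe set by mean stood for its gene. R 4.3.3 and limma 3.58.1 were used, two-sided. The method was tested on simulated data of 18193 genes for 3 or more divisions against the control, where 99 of 100 genes changed by 3 log2 units and 65 of 100 changed by 1 were recovered, with 8 false calls. Only 100 genes were changed at each size there, against 5020 genes called in these data. The simulated figures thus do not measure the accuracy of the calls here.

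The genes, related lists and marker lists were chosen with earlier results of these data known. Named were all members, up to 4 called genes of each related list by size, or the largest where none was called, and the closest correlates of each member. Arrays with the same number deviated together from the means of their groups (r = 0.477 to 0.872 in all 10 pairs of groups), so the numbers, which the labels do not tie to a shared culture, were taken to pair the arrays. The fit without the block is the main one. It leaves the difference between replicate numbers in the spread, so a gene it does not call may pass with the block. For Fbln1 after 3 or more divisions against the control the SE was 0.57 without the block and 0.20 with it. Depth has no meaning for arrays, and the 2 arrays per group limit the precision. Alternatives were the floor, the normalization, the probe set rule, a filter on dim genes, the block, the arrays fitted, the prior and leaving out each array. A fit of the 6 arrays of 0, 1 and 2 divisions alone was added after seeing the data. Efemp2, Mfap1a, Mfap1b, Loxl2, Adamts17 and Plin1 were not analysed here.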

Additional observations from a re-analysis of the deposited data

How the results depend on the processing

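For 3 or more divisions against the control the number of called genes among the 9 was 7 or 8 in every setting run, all of them lower. It was 8 with the replicate block and with every probe set on its own, which took the probe set with the lowest p for each gene. In the latter the dim probe set of Fbln2 passed, whose intensity of 9.74 to 22.3 lay below the array medians. For the other comparisons the number of called genes depended on the setting. After 0 divisions it was 1 instead of 0 with genes above the median level only, with trend and robust priors, and with the replicate block. After 1 division it was 0 instead of 2 with a floor of 16 and with the compared arrays only, and 5 with the replicate block. After 2 divisions it was 3 instead of 5 with a floor of 16 and 0 with the compared arrays only. Between 2 and 0 divisions the replicate block gave 2 instead of 0, also in the 6 arrays of the cohorts alone, where 0 passed without it. For 3 or more against 2 divisions a floor of 16 gave 1 instead of 3 and the replicate block 6. For 3 or more against 0 a floor of 16 and the mean of probe sets each gave 6 instead of 7. For the slope the block gave 3 instead of 0. The block moved no other count of members by over 1.5 times. It raised the calls over all genes from 54 to 591 after 0 divisions, from 226 to 1277 after 1, from 1114 to 2827 after 2, from 10 to 205 for 2 against 0, from 2529 to 4652 and 1087 to 3449 for 3 or more against 0 and 2, and from 0 to 394 for the slope. Over all genes the count after 0 divisions was 25 with a floor of 16, 35 with median-centred arrays, 20 with every probe set on its own, 88 with genes above the median level, 82 with trend and robust priors and 0 with the compared arrays only. After 1 division it was 144 with the floor and 0 with the compared arrays, after 2 it was 86 with the compared arrays, and for 3 or more against 2 it was 616 and 667. For 2 against 0 it was 1 with the floor and in the 6 arrays alone, 228 there with the block, and 0 with genes above the median level and with the compared arrays.

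Leaving out 1 array gave 7 to 7 calls for 3 or more divisions against the control, 0 to 1 after 0 divisions, 0 to 1 after 1, 1 to 5 after 2, 0 to 0 between 2 and 0 and for the slope, 4 to 5 for 3 or more against 0, and 0 to 1 for 3 or more against 2. Over all genes it gave 2701 to 4025 for 3 or more divisions against the control, 4 to 32 after 0, 4 to 77 after 1, 97 to 573 after 2, 0 to 13 for 2 against 0, 391 to 1480 for 3 or more against 0 and 6 to 485 for 3 or more against 2. Such fits hold 1 array in a group, which is assumed to vary like the others.

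The sign turned in 22 cases, none of them called in either setting. Leaving out 1 array moved Mfap5 after 0 divisions against the control between -0.81 and 0.0519. Fbln1 ran from -0.84 to 0.39 after 0 divisions (0.31 without replicate 2 of the cohort), from -0.87 to 0.36 after 1 (0.35) and from -0.63 to 0.61 after 2 (0.19). Fbln2 ran from -1.21 to 0.19 after 0, from -0.95 to 0.45 after 1 (0.21 without replicate 1 of the cohort) and from -0.88 to 0.52 after 2 (0.07). Between 2 and 0 divisions Fbln1 ran from -0.32 to 0.75 and Fbln2 from -0.0751 to 0.73, and their slopes from -0.10 to 0.36 and from -0.0220 to 0.32. For 3 or more against 0 divisions Fbln2 ran from -0.595 to 0.21. Fbln1 after 2 divisions against the control was 0.0236 with the deposited values, 0.0558 with median-centred arrays and 0.00893 with the mean of its probe sets. With every probe set on its own Fbln1 was at 0.26 and 0.22 for 3 or more against 0 and 2 divisions. Those values belong to a dim probe set with a mean of 4.72, which this setting took for its lower p. The probe set that stands for Fbln1 stayed at -0.66 and -0.87. The cause of the other sign turns was not tested. With each array centred on its median 1766 genes were lower and 3466 higher for 3 or more divisions against the control, against 2125 and 2895, and for 3 or more against 0 it was 840 and 2084, against 990 and 1539.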
